A study of Mus musculus with 12 samples.

Results

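The 10 genes described here encode secreted activin and bone morphogenetic protein (BMP) ligands, the proteins that bind them outside the cell, and 1 gene that BMP signals switch on: Inhba, Inhbb, Fst, Fstl1, Fstl3, Bmp2, Bmp4, Grem1, Gdf10 and Id1. They were taken by name from a table of 25239 mouse genes, and earlier results of these data were known when they were chosen. All 10 were among the 14901 genes with enough counts to be tested. RNA was sequenced from cells sorted as SCA1+ fibroblasts from the back skin of male wild type C57BL/6 mice aged 8 weeks. Skin was left unwounded (NW) or was taken 16 h, 1.5 d or 3 d after a full-thickness excisional wound was made with a 4 mm punch. Each of the 4 groups held 3 mice, and the mice of different groups were different animals. The sort kept live SCA1+ cells without the leukocyte antigen CD45 or the endothelial antigen CD31, so that fibroblasts without surface SCA1 were left out and no antibody removed epidermal cells.

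Activins are dimers of inhibin beta subunits and signal through SMAD2 and SMAD3, whereas BMPs signal through SMAD1 and SMAD5 and switch on the Id genes, which encode inhibitors of differentiation that block other transcription factors. Both kinds of ligand are held in check outside the cell: follistatin and follistatin-like 3 bind activins, and gremlin 1 binds BMP2 and BMP4. In skin, activin A is known for its role in wound repair and the formation of granulation tissue, and BMPs for holding hair follicle stem cells at rest.

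Bases before the annotated start are shown for 3 members because they set the largest rise against NW, the paralogous subunit gene that passed no test, and the largest fall at 16 h side by side. The sequences are from RefSeq, assembly GRCm38.p6, whose table matched 7 of the 10 members. Each is the 250 bases before the start of the gene, 5′ to 3′ on the strand of the gene, and capitals mark the motif match. Inhba, the inhibin beta A subunit, lies on chromosome 13 (mm10, plus strand, 16011851 to 16031609), Inhbb, the beta B subunit, on chromosome 1 (minus strand, 119415463 to 119422248) and Bmp4 on chromosome 14 (minus strand, 46383525 to 46390669). The windows are chr13:16011601-16011850, chr1:119422249-119422498 and chr14:46390670-46390919.
Inhba: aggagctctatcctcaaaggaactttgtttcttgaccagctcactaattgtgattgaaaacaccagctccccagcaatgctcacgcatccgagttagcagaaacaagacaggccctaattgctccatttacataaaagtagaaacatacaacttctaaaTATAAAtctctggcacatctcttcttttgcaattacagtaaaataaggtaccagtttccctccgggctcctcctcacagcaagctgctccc
Inhbb: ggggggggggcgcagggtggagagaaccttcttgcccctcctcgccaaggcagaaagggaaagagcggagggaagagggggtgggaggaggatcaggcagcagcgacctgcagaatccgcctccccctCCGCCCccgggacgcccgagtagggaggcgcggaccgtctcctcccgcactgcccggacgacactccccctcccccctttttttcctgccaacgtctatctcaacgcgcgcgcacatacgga
Bmp4: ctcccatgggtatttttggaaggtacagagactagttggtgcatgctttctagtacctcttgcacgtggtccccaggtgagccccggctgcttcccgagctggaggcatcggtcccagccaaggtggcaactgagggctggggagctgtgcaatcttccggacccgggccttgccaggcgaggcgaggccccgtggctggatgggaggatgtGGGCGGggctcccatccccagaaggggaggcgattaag
The Inhba window held 1 match to TATAAA, at 91 to 86 bases before the start, and its GC content was 43.2%. The Inhbb window held 1 match to the GC box GGGCGG, on the opposite strand (122 to 117 bases before the start), at a GC content of 68%. The Bmp4 window held 1 GC box, on its own strand (38 to 33 bases before the start), at a GC content of 63.2%. Over 32851 RefSeq promoters of the same length, 12.4% held TATAAA and 32.7% held GGGCGG on either strand. No match in the 3 windows was found for AP-1 (TGANTCA, in 6.75% of promoters), the cyclic AMP response element (TGACGTCA, 1.55%), the SMAD palindrome (GTCTAGAC, 0.167%), the GC-rich SMAD element (GGCGCC, 9.59%) or the CCAAT box (CCAAT, 33.8%). These matches describe the letters of the windows.

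The libraries held 26389453 to 43493475 counts, so that 3 counts stood for 0.069 to 0.114 CPM, a count scaled to the size of its library. Levels are given as CPM after TMM scaling, which also allows for differences in composition, and comparisons between genes as CPM per kb of exon. Fibroblast genes (8 in the list) made up 4.27% to 20.3% of counts in the 12 libraries, and Ptprc, which encodes CD45, and Pecam1, which encodes CD31, reached at most 8.71 and 3.98 CPM. All 18 listed keratinocyte markers were detected in every group, and their summed share of counts was 2.05% to 4.17% in NW, 0.957% to 1.6% at 16 h, 0.473% to 0.825% at 1.5 d and 0.0915% to 1.52% at 3 d. Libraries of a group correlated at 0.954 to 0.981 (Pearson r of log2 levels across genes). Because these are bulk samples, fewer cells of a type and less RNA per cell cannot be told apart.

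At 16 h, 2 of the 10 genes rose against NW (Inhba, Fst) and 4 fell (Bmp2, Bmp4, Gdf10, Id1). Over all 14901 genes tested, 24.7% passed the test in that comparison (13.5% higher and 11.2% lower). At 1.5 d, 3 rose (Inhba, Fst, Fstl1) and 3 fell (Bmp2, Bmp4, Id1), where 24.5% of all genes passed (13.7% higher and 10.8% lower). At 3 d, 2 rose (Inhba, Fstl1) and 3 fell (Bmp2, Bmp4, Id1), where 21.1% of all genes passed (12.0% higher and 9.15% lower). Inhba was thus higher at all 3 times and Bmp2, Bmp4 and Id1 were lower at all 3, while Inhbb, Fstl3 and Grem1 passed in none of the 6 pairwise comparisons. Libraries of the compared groups did not overlap for 6 genes at 16 h and at 1.5 d and for 7 at 3 d, of which Fst and Grem1 missed the test. Over all genes tested, the share without overlap was 41.3%, 40.7% and 40.3%. The median log2 change of the 10 genes was -0.08 at 16 h, 0.18 at 1.5 d and 0.12 at 3 d, beside -0.04, 0.01 and 0.00 over all genes tested. The test was the edgeR quasi-likelihood test over all 12 libraries, and a gene passed at a Benjamini-Hochberg adjusted p under 0.05. The 3 comparisons share the NW libraries.

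**Figure D1:**
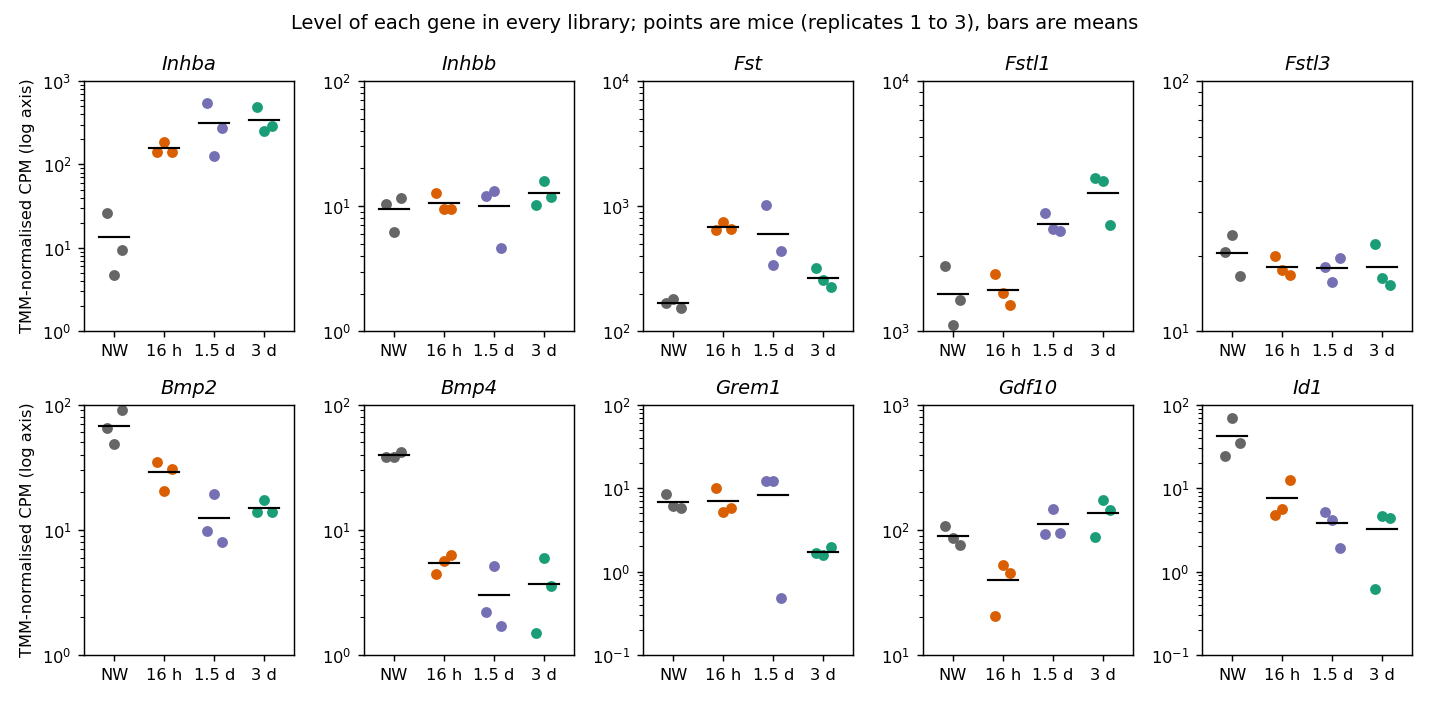
TMM-normalised CPM (log axis) of the 10 genes in each of the 12 libraries, by group: points are mice, and horizontal bars are group means (n = 3). Inhba lies between 4.77 and 26.3 CPM in NW and at 128 CPM or more in every wound library, and Bmp4 at 37.9 CPM or more in NW and at 6.24 CPM or less after wounding.

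Inhba rose from the lowest level per length of the 10 genes to the third. Its levels were 26.3, 4.77 and 9.29 CPM in the NW mice, 140.7, 183.7 and 141.9 CPM at 16 h, 543, 127.6 and 271.1 CPM at 1.5 d and 493, 249.1 and 286.2 CPM at 3 d. Every wound library was above every NW library. In CPM the spread was widest at 1.5 d, where replicate 1 stood far above replicate 2. Relative to the group mean, the spread was widest in NW. The NW mean of 13.45 ± 11.3 CPM compared with 155.5 ± 24.5, 313.9 ± 211 and 342.8 ± 131 CPM at the successive wound times (SD, n = 3). The log2 change against NW was 3.53 ± 0.62 at 16 h (SE, edgeR adjusted p = 0.00151), 4.55 ± 0.65 at 1.5 d (adjusted p = 0.000437) and 4.67 ± 0.65 at 3 d (adjusted p = 0.000408), or 11.6-, 23.4- and 25.5-fold. Per kb of exon, Inhba went from 2.11 CPM in NW, above 35.1% of the genes tested, to 53.7 CPM at 3 d, above 91.1%. Between wound times its levels overlapped except at 3 d against 16 h, where the adjusted p was 0.233 (log2 change 1.14 ± 0.56).

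Inhbb, which encodes the beta B subunit of activin B, was at a low level in all 4 groups. It measured 10.4, 6.18 and 11.6 CPM in NW, 12.8, 9.55 and 9.43 CPM at 16 h, 12, 13.2 and 4.65 CPM at 1.5 d and 10.1, 16 and 11.9 CPM at 3 d. All 4 groups overlapped, and the edgeR adjusted p for any difference among them was 0.806. Per kb of exon Inhba and Inhbb stood at 2.11 and 2.21 CPM in NW and at 53.7 and 2.98 CPM at 3 d.

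Fst, the gene of follistatin (chromosome 13, minus strand, 114452262 to 114458951), was highest at 16 h and 1.5 d. NW libraries held 169, 182 and 153 CPM and the 16 h libraries 648, 742 and 658 CPM. At 1.5 d the levels were 1013, 338 and 439 CPM, and at 3 d 320, 256 and 224 CPM. Every wound library exceeded every NW library, and every 3 d library was below every 16 h and 1.5 d library. Fst was 4.07-fold higher than NW at 16 h (log2 change 2.02 ± 0.34, edgeR adjusted p = 0.00113) and 3.55-fold higher at 1.5 d (1.83 ± 0.34, adjusted p = 0.00206). At 3 d the log2 change was 0.67 ± 0.33 and missed the threshold (adjusted p = 0.17), though it passed without replicate 1 of 1.5 d (adjusted p = 0.0264). Fst fell from 16 h to 3 d by 1.36 ± 0.33 on the log2 scale (adjusted p = 0.0217), a call lost without replicate 1 or 2 of 16 h or replicate 2 or 3 of 3 d (adjusted p = 0.0509 to 0.0777).

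Fstl3 encodes a second activin-binding protein of the follistatin family. It measured 20.8, 24.3 and 16.6 CPM in NW, 20, 17.6 and 16.8 CPM at 16 h, 18.1, 15.7 and 19.7 CPM at 1.5 d and 22.4, 16.3 and 15.3 CPM at 3 d. The groups overlapped throughout (edgeR adjusted p for any difference = 0.868). Of its exon bases on chromosome 10 (plus strand, 79777274 to 79782630), 59.2% are shared with Prss57 on the other strand, where the authors' counting could not assign fragments, so that its level is uncertain.

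Fstl1 (chromosome 16, plus strand, 37777055 to 37836516), a secreted glycoprotein with a follistatin-like domain, was the most abundant of the 10 genes per length in every group. Levels were 1830, 1061 and 1338 CPM in NW, 1698, 1426 and 1272 CPM at 16 h, 2965, 2552 and 2524 CPM at 1.5 d and 4110, 3967 and 2668 CPM at 3 d. The 16 h libraries overlapped NW, and all 1.5 d and 3 d libraries stood above both. The log2 change against NW was 0.93 ± 0.25 at 1.5 d (edgeR adjusted p = 0.0171) and 1.35 ± 0.25 at 3 d (adjusted p = 0.00267). Fstl1 rose from 16 h to 3 d by 1.29 ± 0.25 (adjusted p = 0.00702). The 1.5 d call was lost without NW replicate 2 (adjusted p = 0.0659) or 3 (adjusted p = 0.059).

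The activin subunits Inhba and Inhbb, summed per kb of exon, were set against the summed activin-binding genes Fst and Fstl3 in each library, as a description with no test. The NW libraries gave ratios of 0.0944, 0.0289 and 0.0678, the 16 h libraries 0.106, 0.116 and 0.103, the 1.5 d libraries 0.242, 0.183 and 0.267 and the 3 d libraries 0.647, 0.437 and 0.554. The 4 groups did not overlap and stood in the order of time. On the log2 scale the group means were -4.13 ± 0.88, -3.21 ± 0.09, -2.13 ± 0.28 and -0.89 ± 0.28 (SD, n = 3). RNA of the ligand genes was below that of the binding genes in all 12 libraries on this scale. Computed from raw counts, which the length of a gene affects, the mean log2 ratio at 3 d was 0.28.

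**Figure D2:**
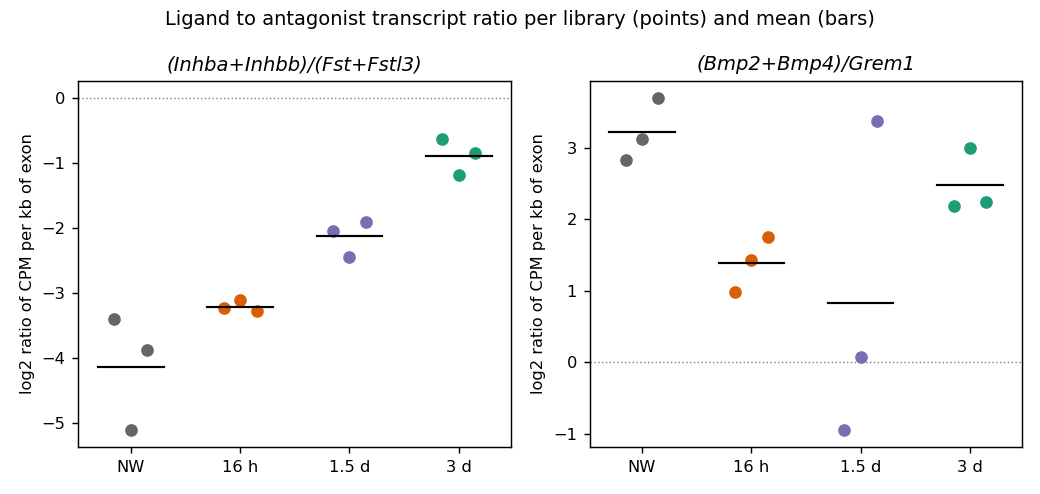
log2 ratio of ligand to antagonist levels (CPM per kb of exon) in each library, for the activin genes (Inhba + Inhbb over Fst + Fstl3) and the BMP genes (Bmp2 + Bmp4 over Grem1): points are mice, horizontal bars group means (n = 3). The activin ratio ranges from -5.11 to -3.41 in NW and from -1.19 to -0.63 at 3 d, and the BMP ratio at 1.5 d runs from -0.95 to 3.37.

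Bmp4 was the member with the largest fall at 16 h. It stood at 37.9, 38.6 and 42.1 CPM in NW, at 4.47, 5.63 and 6.24 CPM at 16 h, at 2.2, 5.15 and 1.7 CPM at 1.5 d and at 1.51, 5.96 and 3.54 CPM at 3 d. The NW libraries lay close together and far above all 9 wound libraries, which overlapped between times. Of its exon bases, 3.98% are shared with Gm15217. Bmp4 was 7.25-fold lower at 16 h (log2 change -2.86 ± 0.49, edgeR adjusted p = 0.0014), 13.1-fold lower at 1.5 d (-3.71 ± 0.51, adjusted p = 0.000362) and 10.8-fold lower at 3 d (-3.43 ± 0.51, adjusted p = 0.00063).

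Bmp2 (chromosome 2, plus strand, 133552159 to 133562896), a ligand of the same subgroup as Bmp4, fell at all 3 times. NW libraries held 64.7, 48.2 and 91.3 CPM, 16 h libraries 34.8, 20.5 and 30.9 CPM, 1.5 d libraries 9.76, 19.3 and 8.01 CPM and 3 d libraries 14, 17.2 and 13.9 CPM. All 16 h values were below NW, and all 1.5 d and 3 d values were below those at 16 h. The log2 change against NW was -1.24 ± 0.35 at 16 h (edgeR adjusted p = 0.0198), -2.46 ± 0.36 at 1.5 d (adjusted p = 0.000547) and -2.18 ± 0.36 at 3 d (adjusted p = 0.0012). The 16 h call was lost without NW replicate 3 (adjusted p = 0.097) or 16 h replicate 2 (adjusted p = 0.0896). The further change from 16 h to 1.5 d was -1.22 ± 0.35 and did not pass (adjusted p = 0.0837), though it did with DESeq2 (adjusted p = 0.0211) and without replicate 2 of 1.5 d (adjusted p = 0.0277). Between 16 h and 3 d the log2 change was -0.93 ± 0.35 (adjusted p = 0.111).

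Gdf10, a ligand of the BMP3 subgroup (chromosome 14, plus strand, 33923587 to 33936514), was lowest at 16 h. Levels were 106.7, 85.3 and 75.5 CPM in NW, 20.6, 52.6 and 45.4 CPM at 16 h, 92.3, 145.7 and 94.4 CPM at 1.5 d and 87.2, 174.3 and 145.1 CPM at 3 d. The 16 h libraries lay below all others, and the 1.5 d and 3 d libraries overlapped NW. Against NW the log2 change at 16 h was -1.17 ± 0.35 (edgeR adjusted p = 0.0255), a call lost without NW replicate 1 (adjusted p = 0.0902) or 16 h replicate 1 (adjusted p = 0.0808). Gdf10 was higher than at 16 h by 1.49 ± 0.35 at 1.5 d (adjusted p = 0.04) and by 1.78 ± 0.35 at 3 d (adjusted p = 0.00736). The 1.5 d difference missed the threshold without NW replicate 1 or 3, without any 1 of the 16 h or 1.5 d libraries, and without 3D replicate 3 (adjusted p = 0.0505 to 0.121).

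Grem1, which encodes the BMP antagonist gremlin 1 (chromosome 2, minus strand, 113748675 to 113758648), measured 8.43, 6.09 and 5.8 CPM in NW and 9.91, 5.15 and 5.7 CPM at 16 h. At 1.5 d it measured 12.1, 12.3 and 0.487 CPM, the last from 22 counts, and at 3 d 1.67, 1.58 and 1.95 CPM. The 3 d libraries lay below all NW and 16 h libraries, and replicate 3 of 1.5 d lay below every other library. The edgeR adjusted p for any difference was 0.154, and the log2 change at 3 d against NW was -1.96 ± 0.78 (adjusted p = 0.0919). Without replicate 3 of 1.5 d, the 3 d change passed against NW (adjusted p = 0.00455), against 16 h (adjusted p = 0.00876) and against 1.5 d (adjusted p = 0.0458), and the adjusted p for any difference was 0.00324. With DESeq2 on all libraries the 3 d change against NW also passed (adjusted p = 0.0376), as it did in a fit of those groups alone (adjusted p = 0.0185).

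The summed level of Bmp2 and Bmp4 over that of Grem1, per kb of exon, was 7.11, 8.68 and 13 in NW, 1.97, 2.7 and 3.36 at 16 h, 0.517, 1.05 and 10.3 at 1.5 d and 4.56, 8 and 4.73 at 3 d. The 16 h libraries lay below those of NW and of 3 d. At 1.5 d the libraries ran from below every 16 h library to within the NW range, with the high value in the library with 22 Grem1 counts. This too is a description with no test. Grem1 is the only antagonist in this ratio, at group means of 4.13, 4.22, 5.05 and 1.06 CPM per kb. Nbl1, another BMP antagonist gene, had means of 374.6, 138.9, 141.1 and 186.8 CPM per kb in the same order of groups. The ratio therefore does not describe BMP ligands against their antagonists as a whole.

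Id1 (chromosome 2, plus strand, 152736251 to 152737410), the BMP target among the members, measured 24, 68.5 and 35 CPM in NW, 4.8, 5.63 and 12.6 CPM at 16 h, 5.2, 4.19 and 1.93 CPM at 1.5 d and 0.611, 4.67 and 4.34 CPM at 3 d. Every wound library was below every NW library, and the lowest value rested on 15 counts. The log2 change against NW was -2.47 ± 0.66 at 16 h (edgeR adjusted p = 0.0163), -3.50 ± 0.69 at 1.5 d (adjusted p = 0.00317) and -3.73 ± 0.70 at 3 d (adjusted p = 0.00267). The 16 h call was lost without NW replicate 2 (adjusted p = 0.0686), 16 h replicate 1 (adjusted p = 0.0623) or 16 h replicate 2 (adjusted p = 0.0695).

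**Figure D3:**
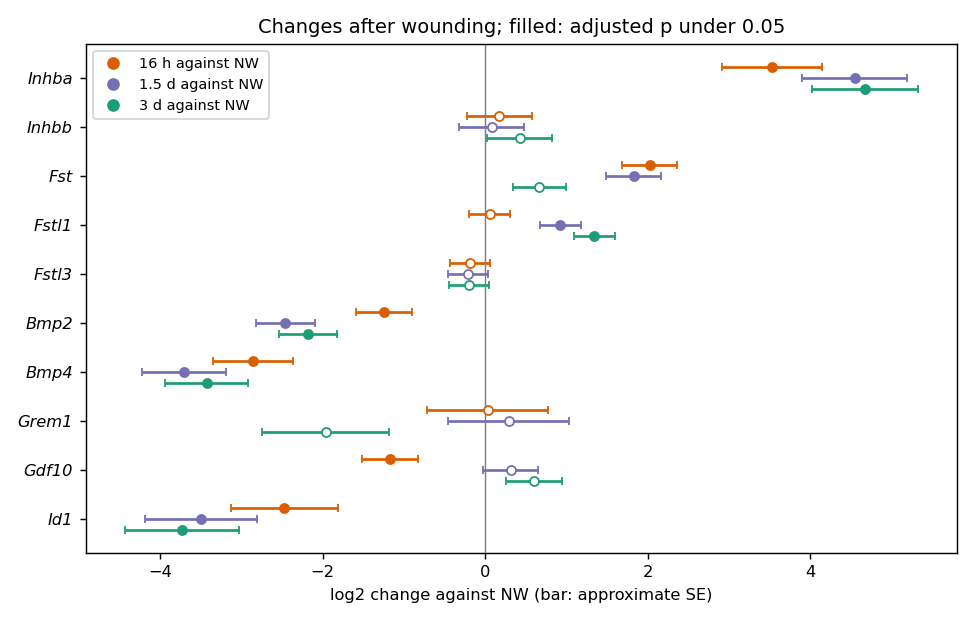
log2 change of the 10 genes against NW at 16 h, 1.5 d and 3 d (edgeR), with approximate SE as bars; filled points passed at an adjusted p under 0.05. Inhba has the largest rises, 3.53 to 4.67, and Bmp4 (-2.86 to -3.71) and Id1 (-2.47 to -3.73) the largest falls.

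Some keratinocyte markers also changed after wounding, as did genes of other marker lists. Of the 18 markers, 4 fell and 2 rose against NW at 16 h, 11 fell and 2 rose at 1.5 d, and 9 fell and 2 rose at 3 d. None of them was at 0 in any group. Over all genes tested, 24.7%, 24.5% and 21.1% passed in these comparisons. With the mean log2 level of these markers as a covariate, the log2 changes of Bmp4 were -2.41, -2.91 and -2.80 and those of Bmp2 -1.13, -2.22 and -1.94 over the wound times, all with an edgeR adjusted p under 0.05 (0.0482 for Bmp2 at 16 h). In that fit Id1 did not pass at 16 h (log2 change -1.63, adjusted p = 0.0632) or 1.5 d (-2.06, adjusted p = 0.0845), nor did Gdf10 at 16 h (-1.03 in place of -1.17, adjusted p = 0.072) or Fstl1 at 1.5 d (0.74 in place of 0.93, adjusted p = 0.175), and Inhba passed at all 3 times. The covariate was 8.47 to 9.35 in NW and 4.89 to 8.7 in the wound libraries, so that it differed with wounding itself. This fit therefore cannot show the part of epidermal cells in the falls, which was not tested. The counts for the other marker lists rest on few genes and are to be read against the same shares over all genes, which some of them lie near. Of 3 adipocyte markers tested, 3 fell at 16 h and 2 at 1.5 d and at 3 d, and the summed share of the list was 0.00367% to 0.00806% of counts in NW and at most 0.000144% after wounding. Of 10 macrophage and monocyte markers, 5 rose at each time and 1 fell at 16 h, with a summed share of 0.00537% to 0.0109% in NW and 0.00554% to 0.0117% after wounding. Of 5 neutrophil markers tested, 4, 3 and 1 rose at the successive times, and their summed share stayed at or under 0.0024%. Of 7 endothelial markers tested, 2 fell at 16 h and 1 at each later time. Of 8 pericyte and vascular smooth muscle markers, 3 fell at 16 h, 1 rose and 2 fell at 1.5 d, and 2 rose at 3 d. Of 4 dermal papilla and sheath markers tested, 1 rose and 2 fell at 16 h, and 1 rose at 1.5 d and at 3 d. Of 2 Schwann cell and melanocyte markers tested, none passed. Ly6a, which encodes the sorted antigen SCA1, rose at 1.5 d by 0.94 ± 0.28 (edgeR adjusted p = 0.0265), and the fibroblast receptor gene Pdgfra rose by 2.33 ± 0.35, 2.41 ± 0.35 and 1.51 ± 0.34 at 16 h, 1.5 d and 3 d (adjusted p = 0.000582, 0.000551 and 0.00785). Of the 8 fibroblast markers, which include both, 1 rose and 2 fell at 16 h, 3 rose and 1 fell at 1.5 d, and 3 rose at 3 d. Their summed share was 8.75% to 17.6% of counts in NW and 4.27% to 10.2% at 16 h. The part of these shifts in the changes of the 10 genes was not tested.

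**Figure D4:**
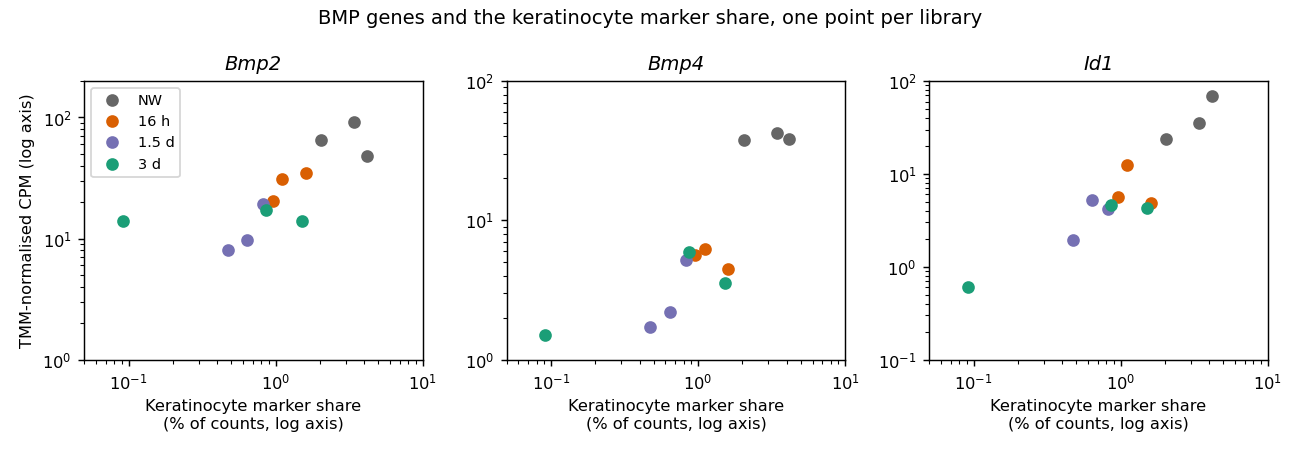
Level of Bmp2, Bmp4 and Id1 (TMM-normalised CPM, log axis) against the summed share of counts of 18 keratinocyte markers (percent, log axis), 1 point per library. The NW libraries are at 2.05% to 4.17% and the wound libraries at 0.0915% to 1.6%. Replicate 1 of 3 d, at the lowest share, has the lowest Bmp4 and Id1 levels but not the lowest Bmp2 level (14 CPM). The lowest Bmp2 level, 8.01 CPM, is in replicate 3 of 1.5 d. Among the 16 h libraries, replicate 1 has the highest share (1.6%) and the lowest Bmp4 and Id1 levels.

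Between wound times few of the 10 genes passed. From 16 h to 1.5 d it was Gdf10 alone, where 2.86% of all genes passed (2.39% higher and 0.470% lower), and 3 genes did not overlap between those groups (Fstl1, Bmp2, Gdf10), as did 23.4% of all genes. From 1.5 d to 3 d none of the 10 passed with edgeR, DESeq2 or limma-voom, where 0.141% of all genes passed with edgeR (0.101% higher and 0.0403% lower). In that comparison 2 had an unadjusted p under 0.05: Fst (log2 change -1.16 ± 0.33, adjusted p = 0.299) and Grem1 (-2.25 ± 0.79, adjusted p = 0.454). Fst was the 1 gene without overlap there, beside 13.6% of all genes. At 3 d against 16 h, Fstl1 and Gdf10 rose and Fst fell, where 9.53% of all genes passed (5.86% higher and 3.67% lower). There 7 genes did not overlap, beside 32.5% of all genes. Over the 4 groups together, 7 of the 10 genes differed in some way, where 29.7% of all genes passed. The exceptions were Inhbb, Fstl3 and Grem1.

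Across the 12 libraries, log2 levels of Inhba ran against those of Bmp4 (Pearson r = -0.95), Id1 (-0.92) and Bmp2 (-0.87), and Bmp4 ran with Id1 (0.93) and Bmp2 (0.92). These are descriptions, since the genes share their libraries and all of them but Inhba fell with wounding. Among other genes that averaged 20 CPM or more, the levels most like Inhba were those of Plod3, which encodes a collagen lysyl hydroxylase (r = 0.989), Lgi2 (0.974) and Jam3, a junctional adhesion molecule (0.971). The closest to Bmp4 were Krt15, a basal keratinocyte keratin (0.981), Zfp36, an RNA-binding protein that speeds mRNA decay (0.979), and Txnip, a thioredoxin-binding protein (0.979). Krt15 went from a mean of 5232 CPM in NW to 337.1, 127.3 and then 136.2 CPM over the wound times. Of the 18 keratinocyte markers, 4, 11 and 9 fell at these times and 2 rose at each. Krt14 had means of 7065 CPM in NW and 4351, 2953 and 3637 CPM after wounding. It passed at no wound time (edgeR adjusted p = 0.465, 0.182 and 0.329). Krt6a had means of 20.4 CPM in NW and 377.5, 394.9 and 368.1 CPM after wounding. For Grem1 the closest were Max, the partner of MYC (0.895), Hmox1, heme oxygenase 1 (0.819), and Gabarapl1, an autophagy gene (0.791).

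Of 80 other genes of the activin and BMP pathways, 62 were tested. Against NW, 9 rose and 13 fell at 16 h, 10 rose and 11 fell at 1.5 d, and 10 rose and 8 fell at 3 d, where 24.7%, 24.5% and 21.1% of all genes passed. The counts by role that follow are small and are to be read against the same shares (13.5%, 13.7% and 12.0% of all genes higher, and 11.2%, 10.8% and 9.15% lower). The median log2 change of the 62 genes was -0.32, -0.24 and -0.11, beside -0.04, 0.01 and 0.00 over all genes tested. Without replicate 2 of 16 h the count at 16 h was 13 in place of 22. With the keratinocyte covariate it was 12 in place of 21 at 1.5 d and 10 in place of 18 at 3 d.

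Among the ligands of the list, 8 were tested: 2 fell at each time, and 1 rose at 1.5 d and at 3 d, numbers too small to set apart from the shares over all genes. Bmp3, a ligand of the same subgroup as Gdf10, held 32, 36.5 and 57 CPM in NW and 3.22 to 9.51 CPM in the 9 wound libraries, and fell by 2.46 ± 0.39, 2.63 ± 0.39 and 3.20 ± 0.40 on the log2 scale at the 3 times (edgeR adjusted p = 0.000797, 0.000596 and 0.000183). Of 13 receptors and co-receptors tested, 3 rose and 2 fell at 16 h and at 1.5 d, and 2 rose and 1 fell at 3 d. Bmpr1b, a type I BMP receptor, was near the detection limit in NW, at 11, 9 and 4 counts or 0.42, 0.296 and 0.133 CPM. In the wound libraries it measured 10.2 to 21.2 CPM (log2 change 5.88 ± 0.48, 5.59 ± 0.47 and 5.90 ± 0.48, adjusted p = 1.75e-05, 1.58e-05 and 1.17e-05). Neo1, neogenin, which acts as a co-receptor, was higher at 3 d than at 16 h by 1.36 ± 0.33 (adjusted p = 0.0198).

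Extracellular modifiers, counted together with the pseudoreceptor gene Bambi, went both ways. Of 19 tested, 3 rose and 7 fell (Bambi among them) at 16 h, 3 rose and 4 fell at 1.5 d, and 4 rose and 3 fell at 3 d. Bmper, a secreted BMP-binding protein, rose from 15, 12.6 and 18.3 CPM in NW to 55.8 to 79.4 CPM at 16 h and 108.7 to 169.1 CPM at 1.5 d (log2 change against NW 2.09 ± 0.25 and 3.13 ± 0.26, edgeR adjusted p = 0.000119 and 1.26e-05). Bmp1, a protease that cleaves procollagen and the BMP antagonist chordin, rose by 1.64 ± 0.24 at 1.5 d and 1.84 ± 0.25 at 3 d (adjusted p = 0.000604 and 0.000303), and the related protease gene Tll1 by 1.93 ± 0.38 at 3 d (adjusted p = 0.00329). Chrd, the gene of chordin, measured 33.2, 21 and 15.5 CPM in NW, 4.3, 3.28 and 1.48 CPM at 16 h, 15, 12.9 and 11.9 CPM at 1.5 d and 24.3, 21.9 and 17 CPM at 3 d. It fell by 2.94 ± 0.41 at 16 h (adjusted p = 0.000344) and rose from there by 2.13 ± 0.39 to 1.5 d (adjusted p = 0.0125) and 2.80 ± 0.40 to 3 d (adjusted p = 0.00108). Nbl1, a BMP antagonist of the gremlin family, and Htra1, a secreted serine protease, fell at 16 h by 1.43 ± 0.21 and 1.35 ± 0.22 (adjusted p = 0.00041 and 0.00094).

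Inside the cell, 2 of 12 genes tested rose at each time against NW and none fell, where 13.5%, 13.7% and 12.0% of all genes rose. Smad7, an inhibitory SMAD, was at 22.3 to 30 CPM in NW and 47.4 to 59.1 CPM at 16 h, and fell from 16 h to 3 d by 0.87 ± 0.23 (edgeR adjusted p = 0.0294). Of 10 BMP target genes tested, 1 rose and 2 fell at 16 h, 1 rose and 3 fell at 1.5 d, and 1 rose and 2 fell at 3 d. Id3, a close relative of Id1, held 442, 689 and 333 CPM in NW and 40.4 to 139.5 CPM in the wound libraries, with log2 changes of -2.22 ± 0.39 at 16 h (adjusted p = 0.00163) and -2.75 ± 0.40 at 3 d (adjusted p = 0.000567). Runx2, a transcription factor of bone formation, was the target that rose, from 0.648, 1.28 and 1.09 CPM in NW to 11.8 to 37.6 CPM after wounding (log2 change 4.15 ± 0.37, 3.93 ± 0.37 and 5.01 ± 0.38, adjusted p = 2.6e-05, 2.85e-05 and 8.12e-06).

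**Figure D5:**
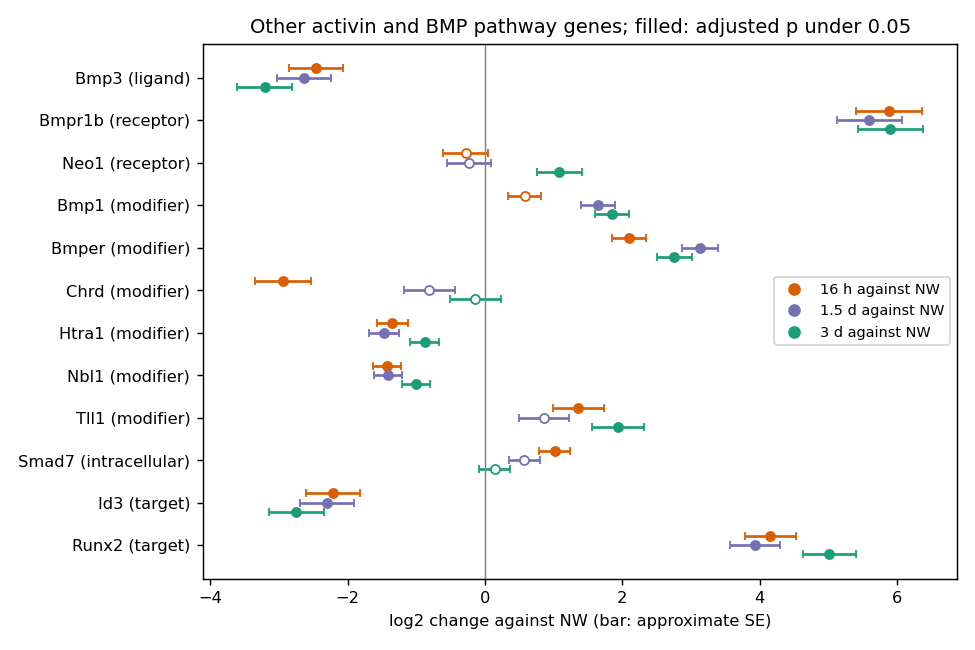
log2 change against NW (edgeR) of the pathway genes named in the text, with approximate SE as bars and the role of each gene in parentheses; filled points passed at an adjusted p under 0.05. Bmpr1b (5.59 to 5.90) and Runx2 (3.93 to 5.01) have the largest rises, and Chrd is at -2.94 at 16 h.

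Between 16 h and 1.5 d, 3 of the 62 pathway genes rose (Chrd, Bmp1 and Bmper) and none fell, where 2.86% of all genes passed. From 16 h to 3 d 4 rose and 1 fell, where 9.53% of all genes passed. With single libraries left out, the count from 16 h to 1.5 d was between 0 and 3, lowest without replicate 2 of 16 h. That from 16 h to 3 d was between 2 and 5, lowest without replicate 2 of 16 h or replicate 1 of 3 d. From 1.5 d to 3 d none of the 62 passed with edgeR or limma-voom and 1 with DESeq2, where 0.141% of all genes passed with edgeR. There 10 had an unadjusted edgeR p under 0.05, with no share over all genes set beside that count.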

How the data were processed

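The authors deposited raw fragment counts for each gene symbol. Per the file headers, they ran featureCounts 2.0.0 on paired reads over exons of an mm10 refGene annotation, with no strand, multi-mapping or overlap option. Exons shared with another gene are therefore uncertain. STAR, SAMtools, Subread and Partek are named without versions in the submitters' processing notes.

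From the deposited counts, genes were filtered with filterByExpr (14901 of 25239), scaled by TMM and fitted by group over 12 libraries with edgeR 4.0.16 (robust quasi-likelihood) in R 4.3.3. Benjamini-Hochberg adjustment covered all genes tested. The SE, the log2 change divided by the root of the F statistic, is approximate. Alternatives included DESeq2 1.42.0 and limma-voom (limma 3.58.1). The fit was also run on counts simulated under its own model, which cannot show how well that model suits these libraries. Library totals were 26389453 to 43493475 counts. Pathway genes named are the called genes with the smallest p, up to 8 in a comparison against NW and up to 4 between wound times; 1 gene that this rule names is not reported here. The genes and lists were chosen with earlier results of these data known.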

Additional observations from a re-analysis of the deposited data

Results flagged for a closer look

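For 3 of the 10 genes the change after wounding differed between times, by the edgeR quasi-likelihood test of the difference itself. Over all genes tested, 2.86% passed from 16 h to 1.5 d and 9.53% from 16 h to 3 d. Gdf10 was higher than at 16 h by 1.49 on the log2 scale at 1.5 d (adjusted p = 0.04) and by 1.78 at 3 d (adjusted p = 0.00736). Fstl1 was higher at 3 d than at 16 h by 1.29 (adjusted p = 0.00702). Fst was lower at 3 d than at 16 h, with a log2 difference of -1.36 (adjusted p = 0.0217). The Gdf10 call at 1.5 d was lost in 11 of 21 alternative fits and the Fst call in 4 of 21. Those of Gdf10 and Fstl1 at 3 d were kept in all 21.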

How the results depend on the processing

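The 21 called changes of the 10 genes were each recomputed under 21 alternatives. In all 441 refits the direction was the same, and 413 kept the call. Of the 39 changes not called, 11 of 819 refits passed and 45 changed sign.

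Of the members, 1 passed from 16 h to 1.5 d, against 0 with library totals alone, 3 with DESeq2, 0 in a fit of the 2 groups only and 0 to 1 with single libraries left out. From 1.5 d to 3 d the count was 0, and 0 to 1 with libraries left out. Between 16 h and 3 d it was 3, and 5 in a fit of the 2 groups only. Pathway counts against NW were 22 at 16 h (13 to 24 with libraries left out), 21 at 1.5 d (12 with the keratinocyte covariate) and 18 at 3 d (10 with the covariate). The 3 pathway genes from 16 h to 1.5 d became 1 with the covariate and 0 to 3 with libraries left out. From 1.5 d to 3 d 0 became 1 with DESeq2, and from 16 h to 3 d 5 became 8 with DESeq2 and 2 to 5 with libraries left out. From raw counts the mean log2 activin ratio was -3.21, -2.08, -0.98 and 0.28 in NW and at 16 h, 1.5 d and 3 d, and the BMP ratio was 3.99, 2.35, 1.77 (range -0.01 to 4.32) and 3.42. Raw counts grow with gene length, and fits of fewer libraries have fewer degrees of freedom. The part of either in these shifts was not tested, nor was any other cause.

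Replicate numbers are shared between groups of different mice. Deviations of same-numbered libraries correlated at -0.341 to 0.293 (median -0.119, 18 pairs), and 3 of 12 libraries had their closest match under their own number. With the replicate number as a block, member counts stayed at 6, 6, 5, 1, 0 and 3 in the 6 comparisons and pathway genes from 16 h to 1.5 d went from 3 to 1.

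Groups of 3 mice limit precision: Id1 at 0.611 CPM and Grem1 at 0.487 CPM rest on 15 and 22 counts, and counting error does not cover the spread between mice.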
